A study of Callithrix jacchus with 71 samples.

Results

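Intermediate filaments are the ropelike protein fibres that give a cell and its nucleus their mechanical shape, and 9 of their genes are described here in single marmoset cells: the keratin genes KRT8, KRT18 and KRT19, the vimentin gene VIM, the nestin gene NES, the neurofilament genes NEFL and NEFM, and the lamin genes LMNA and LMNB1. The set was fixed as a list of gene symbols, and 9 of the 9 have a row among the 23561 named genes of the table. The tested cells, 65 in number, were induced neural stem cell-like cells (iNSLCs) of the clone E01F A-2 at passage 1, written A2 in the sample labels. They arose from dorsal skin fibroblasts of the embryonic marmoset E01F that had received the EP-A episomal vectors, which carry the human factors KLF4, OCT4, SOX2, LIN28 and L-MYC and a dominant-negative mouse p53 named mp53DD, and they grew in the medium named NSM. They are set against 4 embryonic stem cells (ESCs) of line no. 40 and 1 induced pluripotent stem cell (iPSC) of the line E01F A-2-2, which came from the same vectors by way of the iNSLCs in the medium ESM, and these 5 make up the pluripotent stem cells, called PSC cells below. The last cell is 1 E01F fibroblast, the source of the iNSLCs. Cells were sorted 1 by 1 into plates, and their whole RNA was read by RamDA-seq, which covers transcripts along their length.

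Each group is 1 line or clone with 1 source in the labels and was taken as 1 culture. Cells of a culture are not replicates, so no test was made between groups, and levels are given with their range over cells and the mean ± SD over cells. Values are the authors' normalized counts, the reads of a gene in a cell times a factor of that cell. The reads could be recovered, since 100% of non-zero values lay within 0.02 of a whole number of reads. Depth on genes was 82268 to 695241 reads in iNSLCs (median 268128), in the ESCs 134328 to 1003718, the iPSC 302617 and the fibroblast 1294430. A single read was worth 0.441 to 2.84 normalized counts in iNSLCs, 0.405 to 2.55 in ESCs, 1.07 in the iPSC and 0.405 in the fibroblast. Reads carry no molecular tags, so the 95% intervals of reads and of read shares below cover counting error only. The intervals of shares of cells treat the cells of 1 culture as separate draws and do not cover differences between cultures. Transcript lengths are not corrected for, so the levels of different genes are not compared with each other.

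The marker genes followed the labels. The summed level of 8 PSC markers was 0 to 30.2 normalized counts in iNSLCs (median 0), 424 to 1378 in ESCs, 699 in the iPSC and 0.405 in the fibroblast, and TDGF1, UTF1 and CDH1 had no read in any iNSLC. The sum of 8 neural stem cell markers was 154 to 1068 in iNSLCs, 24.7 to 82.6 in ESCs, 46.0 in the iPSC and 45.3 in the fibroblast. The sum of 10 fibroblast markers was 0 to 1074 in iNSLCs (median 48.2), 77.2 to 465 in ESCs, 84.4 in the iPSC and 28458 in the fibroblast. Its upper end in iNSLCs was largely COL1A2, at up to 1069, and no other marker of the list passed 63.3 in any iNSLC.

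Filament genes are used as signs of cell type because each tissue builds its own kind. Simple epithelia, and with them pluripotent cells, pair a type I keratin such as KRT18 or KRT19 with the type II keratin KRT8, since a keratin fibre is built from pairs of both types. Mesenchymal cells and neural progenitors assemble vimentin, to which progenitors add nestin, while neurons build neurofilaments. The lamins differ from all of these in lying under the inner nuclear membrane of nearly every cell.

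Of the 9 genes, VIM, NEFL and NEFM were more than 4-fold higher in iNSLCs than in PSC cells, KRT8, KRT18 and KRT19 were more than 4-fold lower, and NES, LMNA and LMNB1 lay within 4-fold. The mean over the cells compared was at least 1 for 14045 genes, all 9 among them, and of these 5.33% were at least 4-fold higher and 8.59% at least 4-fold lower in iNSLCs. Ratios here and below are log2 values of the mean in iNSLCs over the mean in PSC cells or the value in the fibroblast, with 1 normalized count added to each. The median ratio was -0.04 for the 9 genes and -0.16 for all genes tested. When each of the 5 PSC cells was left out in turn, the counts stayed at 3 higher and 3 lower. Equal totals in all cells moved the median ratio by 0.28 over genes averaging 10 or more, so small ratios, as for LMNA and LMNB1, depend on the scaling.

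**Figure D1:**
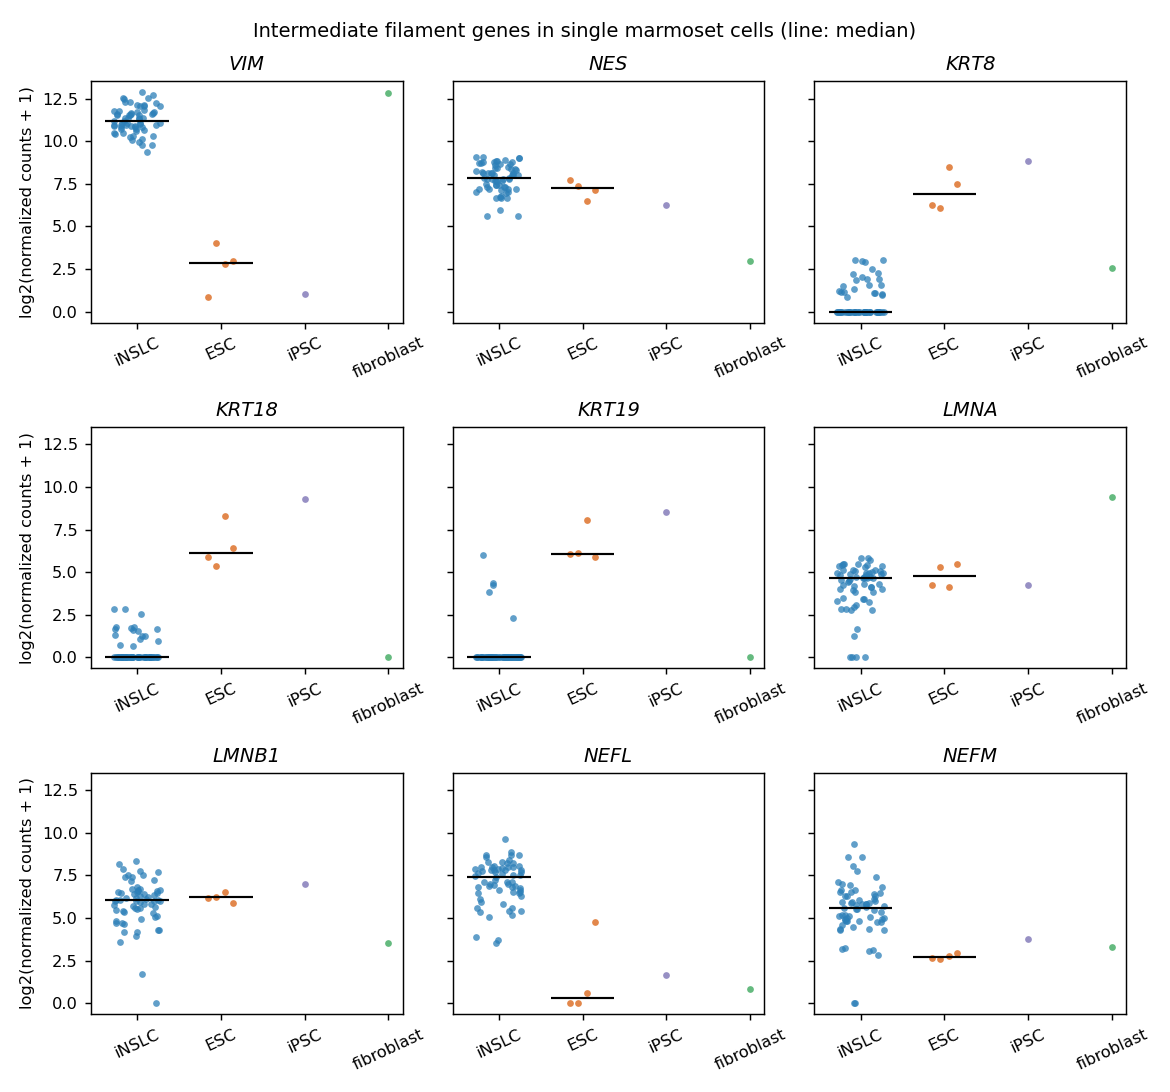
Level of each of the 9 genes (y axis, log2 of normalized counts plus 1) in 65 iNSLCs, 4 ESCs, 1 iPSC and 1 fibroblast (x axis), with 1 point per cell and a line at the median where there is more than 1 cell. The 3 keratins lie at or near 0 in most iNSLCs and between 40.9 and 619 normalized counts in PSC cells, VIM lies the other way round, and the NES points of iNSLCs and ESCs overlap.

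The keratins of simple epithelia were abundant in PSC cells and close to absent from iNSLCs. KRT8, the type II partner, had 0 to 7.26 normalized counts in iNSLCs with a median of 0, and 48 reads in all 65 cells together (CI 35.4 to 63.6). In ESCs 10, 11, 12 and 14 it had 74.5, 66.4, 350 and 181 normalized counts, in the iPSC 452 and in the fibroblast 4.86. Every iNSLC lay below every PSC cell. The mean was 1.03 ± 1.88 in iNSLCs and 225 in PSC cells. The log2 ratio was -6.80, with -7.03 to -6.38 when any 1 PSC cell was left out.

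KRT18, the type I chain that pairs with KRT8, followed it. It had 0 to 6.13 normalized counts in iNSLCs, with a median of 0 and a mean of 0.617 ± 1.35. In ESCs 10, 11, 12 and 14 it had 57.9, 40.9, 308 and 84.1, in the iPSC 619, and the fibroblast had no read. Here too the iNSLCs and the PSC cells did not overlap. The log2 ratio was -7.11, and -6.26 without the iPSC, the PSC cell with the highest level.

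KRT19, a second type I keratin of simple epithelia, differed from both in its spread among iNSLCs. It had no read in 60 of them, and its median was 0 and its mean 1.82 ± 8.57 normalized counts. In ESCs 10, 11, 12 and 14 it had 64.8, 68.9, 262 and 58.3, in the iPSC 364, and in the fibroblast no read. The log2 ratio to PSC cells was -5.87, with -6.08 to -5.35 when any 1 PSC cell was left out. In iNSLC cell 50 KRT19 reached 63.4 normalized counts from 100 reads, which is above the lowest ESC and made this the only overlap of iNSLCs and PSC cells for the keratins. The other 4 iNSLCs with KRT19 reads were cells 47, 78, 72 and 83, with 27, 15, 9 and 4 reads. Cell 50 had no read of KRT8 or KRT18. The summed PSC markers were 0 in cells 47, 50, 72 and 78 and came to 1.0 in cell 83. Cells 50 and 72 had the highest sums of fibroblast markers among the iNSLCs, at 1074 and 861. These sums rest largely on COL1A2, which reached 1069 in iNSLCs, while no other marker of that list passed 63.3. In cells 47, 78 and 83 the sums were 13.6, 14.5 and 68.1. Cell 50 also had the lowest NES, at 46.9. The fibroblast had no KRT19 read among its 1294430 reads on genes. A part of fibroblast RNA in the KRT19 reads of iNSLCs was not tested.

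A trace of keratin RNA was found in part of the iNSLCs. KRT8 had a read in 35.4% of them (CI 23.9% to 48.2%), KRT18 in 26.2% (CI 16.0% to 38.5%) and KRT19 in 7.69% (CI 2.54% to 17.0%). After every cell was thinned to 82268 reads, the reads of the shallowest cell, these shares were 18.5%, 7.69% and 7.69%, against all 5 PSC cells for each of the 3 genes. The fibroblast, which is not an epithelial cell, had 12 reads of KRT8, and its 4.86 normalized counts lay below only 4 of the iNSLCs. The fibroblast had no read of KRT18 or KRT19 and gives no such level for them. Whether the reads of the 3 keratins in iNSLCs are expression was not tested. Few iNSLCs had reads of both partners of a keratin pair. Of the 65 cells 36 had a read of any of the 3 genes, 7 had KRT8 and KRT18, 2 had KRT8 and KRT19, and none had KRT18 and KRT19. The log2 levels of KRT8 and KRT18 had a Pearson r of 0.01 over the 65 iNSLCs, which at so few reads is no finding. Among PSC cells the 3 keratins were each highest in the iPSC and next highest in ESC 12.

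VIM, whose type III filament protein is the common one of mesenchymal and early neural cells, showed the widest separation of the 9 genes. It had 670 to 7552 normalized counts in iNSLCs, with a median of 2333. In ESCs 10, 11, 12 and 14 it had 0.81, 15.3, 5.94 and 6.66, from 2, 6, 11 and 8 reads, and the iPSC had 1.07 from 1 read. In the fibroblast it had 7161 from 17697 reads. The lowest iNSLC stood far above the highest PSC cell, and only 1 of the 65 exceeded the fibroblast. The mean of 2771 ± 1498 in iNSLCs was 465-fold that of PSC cells, which was 5.96. The log2 ratio was 8.64, and 9.23 without ESC 11, whose 15.3 normalized counts are the highest among PSC cells and rest on 6 reads. Against the fibroblast the log2 ratio was -1.37, and -0.61 after scaling to equal totals, which moved the median of all genes in that comparison by 0.75.

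NES, the nestin gene named after neural stem cells, did not separate iNSLCs from PSC cells. It had 46.9 to 545 normalized counts in iNSLCs, with a median of 228, and reads in all 65. ESCs 10, 11, 12 and 14 had 207, 166, 90.2 and 139, from 512, 65, 167 and 167 reads, and the iPSC had 75.9 from 71 reads. The fibroblast had 6.88 from 17 reads. Of the iNSLCs, 38 lay above the PSC cells, 24 within their range and 3 below it. The mean of 261 ± 132 was 1.92-fold that of PSC cells, a log2 ratio of 0.94, with 0.79 to 1.14 when any 1 PSC cell was left out. By the cell numbers of the labels, the ratio was 1.24 for the iNSLCs numbered 57 or above and 0.35 for those numbered 56 or below. NES was thus carried by pluripotent cells too, and the level at which it clearly stood apart was that of the fibroblast, below all 65 iNSLCs, with a log2 ratio of iNSLC to fibroblast of 5.05, or 4.0 with a pseudocount of 10. The genes had been listed for a change from keratins to vimentin and nestin, and the levels of NES followed it only in part.

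**Figure D2:**
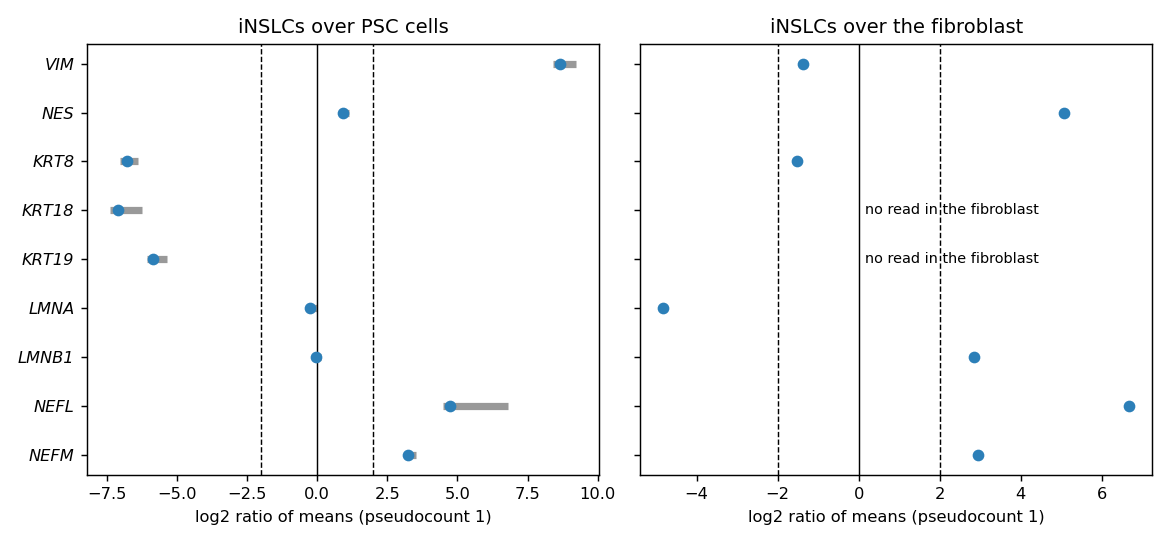
Log2 ratio of the mean over 65 iNSLCs to the mean over 5 PSC cells (left) and to the value in 1 fibroblast (right) for each gene, after 1 normalized count was added. Grey bars on the left span the ratios when 1 PSC cell at a time was left out, dashed lines mark 4-fold, and KRT18 and KRT19 are not drawn on the right because the fibroblast had no read. VIM at 8.64 and the 3 keratins at -5.87 to -7.11 lie on opposite sides, and NES at 0.94 lies within 4-fold of PSC cells and at 5.05 against the fibroblast.

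The balance of filament kinds can be read inside each cell, where no factor between cells enters. Of the reads of KRT8, KRT18, KRT19, VIM, NES, NEFL and NEFM, the 3 keratins took 0% to 2.44% in iNSLCs, with a median of 0.0239% and with 29 cells at 0. They took 48.0% (CI 44.9% to 51.2%), 48.6% (CI 40.1% to 57.1%), 90.0% (CI 88.5% to 91.3%) and 64.3% (CI 60.4% to 68.2%) in ESCs 10, 11, 12 and 14. In the iPSC they took 94.0% (CI 92.6% to 95.2%), and in the fibroblast 0.0676% (CI 0.0349% to 0.118%). No iNSLC came near a PSC cell, and the PSC cells differed among themselves by more than counting error. VIM took 58.4% to 96.2% of these reads in iNSLCs, with a median of 84.3%, against 0.197% to 4.23% in ESCs, 0.0700% in the iPSC and 99.7% in the fibroblast. NES took 1.81% to 20.7% in iNSLCs, with a median of 7.64%, against 8.82% to 50.5% in ESCs, 4.97% in the iPSC and 0.0958% in the fibroblast. Within the PSC cells the keratin share was highest in the iPSC and ESC 12, the same cells in which the NES level was lowest. With 1 iPSC, its line and that cell cannot be told apart.

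**Figure D3:**
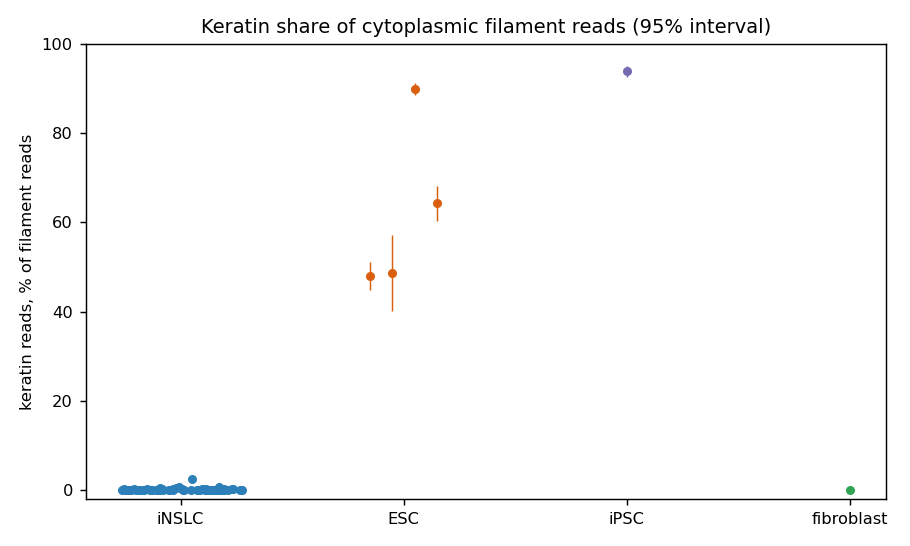
Reads of KRT8, KRT18 and KRT19 as a percentage of the reads of these genes and VIM, NES, NEFL and NEFM (y axis) in each cell of the 4 groups (x axis), with exact Clopper-Pearson 95% intervals. All 65 iNSLCs lie at or below 2.44%, the 5 PSC cells between 48.0% and 94.0%, and the fibroblast at 0.0676%.

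The neurofilament genes, best known from the axons of mature neurons, were present in nearly every iNSLC. NEFL encodes the light chain, on which neurofilaments are built. It had 10.6 to 777 normalized counts in iNSLCs, with a median of 171 and a mean of 183 ± 133. ESCs 10 and 11 had no read, ESC 12 had 0.540, ESC 14 had 26.7, the iPSC had 2.14 and the fibroblast 0.809. Of the iNSLCs, 62 lay above all PSC cells and 3 within their range, which ESC 14 alone stretches. The log2 ratio to PSC cells was 4.75, and 6.79 without ESC 14. Against the fibroblast it was 6.67, where the fibroblast value rests on 2 reads (CI 0.242 to 7.22), and 4.16 with a pseudocount of 10.

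NEFM encodes the medium chain and lies next to NEFL in the RefSeq annotation of assembly calJac240_pri, with 0 protein-coding genes between them. It had 0 to 641 normalized counts in iNSLCs, with a median of 47.2 and a mean of 75.6 ± 102, and had reads in 96.9% of them (CI 89.3% to 99.6%). ESCs 10, 11, 12 and 14 had 5.26, 5.11, 5.94 and 6.66, the iPSC had 12.8 and the fibroblast 8.90. Of the iNSLCs, 58 lay above all PSC cells, 5 within their range and 2 below it. The log2 ratio was 3.23 to PSC cells, with 3.14 to 3.51 when any 1 PSC cell was left out, and 2.95 to the fibroblast.

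Other neuronal genes were also measured. The 6 of 8 listed neuron markers with a row summed to 6.50 to 476 normalized counts in iNSLCs (median 58.2), 0 to 48.2 in ESCs, 5.34 in the iPSC and 9.71 in the fibroblast. Of the 6, 5 were more than 4-fold higher in iNSLCs than in PSC cells, where 5.33% of the 14045 genes tested were. ELAVL3 was lower, at 4.85 in iNSLCs and 13.5 in PSC cells. PSC cells were not left out in turn for this list. Over the 65 iNSLCs, the Pearson r of log2 levels between this sum and NEFL was 0.03, and that between the sum and NEFM was 0.28. A part of differentiating neurons in the neurofilament levels was not tested.

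The lamins set the fibroblast apart rather than the iNSLCs. LMNA encodes the A-type lamins, which are known to be abundant in stiff tissues and differentiated cells and scarce in pluripotent ones. It had 0 to 56.7 normalized counts in iNSLCs, with a median of 23.9 and a mean of 22.7 ± 14.2. ESCs 10, 11, 12 and 14 had 18.2, 38.3, 16.7 and 44.2, and the iPSC 18.2, whereas the fibroblast had 669. All 65 iNSLCs lay below the fibroblast, whose value was 29.4-fold their mean (log2 ratio of iNSLC to fibroblast -4.82, and -4.07 after scaling to equal totals). Against PSC cells 39 of the 65 iNSLCs lay within the range, 23 below and 3 above, and the log2 ratio was -0.24, with signs that differed between settings from -0.83 to 0.37.

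LMNB1 encodes a B-type lamin that nearly all cell types make. It had 0 to 324 normalized counts in iNSLCs, with a median of 64.3 and a mean of 81.3 ± 66.2. ESCs 10, 11, 12 and 14 had 72.1, 74.1, 90.7 and 56.6, the iPSC 124 and the fibroblast 10.5. Of the iNSLCs, 11 lay above the PSC cells, 27 within their range and 27 below it, and the log2 ratio of -0.04 turned to 0.21 with equal totals. The fibroblast lay below 63 of the iNSLCs, whose mean was 7.73-fold higher, a log2 ratio of 2.84.

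Against the fibroblast as a whole, 8 of the 9 genes passed the mean of 1, KRT18 being the exception. NES, LMNB1, NEFL and NEFM were at least 4-fold higher in iNSLCs, where 11.0% of 13737 genes were, LMNA was at least 4-fold lower, where 7.99% were, and VIM, KRT8 and KRT19 lay within 4-fold. For KRT8 this rests on the added count, since without it the fibroblast value was 4.71-fold the mean of iNSLCs. With no fibroblast read, the mean of KRT19 in iNSLCs was at least 1.5-fold higher, taken against 3 reads in the fibroblast. That mean rests on reads in 5 of the 65 iNSLCs, with 63.4 normalized counts in cell 50. No fold is given for KRT18, whose mean in iNSLCs, 0.617, lay under that limit of 1.21 normalized counts, though single iNSLCs reached up to 6.13. The median ratio was 2.17 for the 8 genes and 0.11 for all genes tested. The fibroblast is a single cell, so these values describe that cell.

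In the order of levels, the groups can be placed gene by gene. For VIM the fibroblast stood at the top, at the upper end of the iNSLCs, with ESCs and the iPSC far below and not separated from each other, their levels being 1 to 11 reads. For KRT8, KRT18 and KRT19 the iPSC came first, then the ESCs, and last the iNSLCs and the fibroblast, which overlapped. For NES the order was iNSLCs, ESCs, iPSC and fibroblast, and the iNSLCs spanned the levels of the ESCs and of the iPSC, which lay below each ESC. NEFL and NEFM were highest in iNSLCs. The other cells lay close together at 5.11 to 12.8 normalized counts for NEFM and at 0 to 2.14 for NEFL apart from ESC 14. LMNA was highest in the fibroblast with the other groups overlapping, and LMNB1 was lowest in the fibroblast, where 2 iNSLCs lay below it.

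Between the cells of the iNSLC culture the 9 genes varied by different amounts. Since reads carry no molecular tags, the part of amplification in this spread cannot be told apart from differences between cells. For VIM the coefficient of variation (CV, SD over mean) was 0.541 where the counting of reads alone gives 0.0220, and for NES it was 0.507 against 0.0717. The highest iNSLC had 11.3-fold the VIM and 11.6-fold the NES of the lowest. NEFL had a CV of 0.727 against 0.0855 from counting and spanned 73.4-fold. NEFM had the widest spread of the genes present in nearly all iNSLCs, with a CV of 1.36 against 0.133, and 97.7% of the 1451 genes whose mean lies within 2-fold of its own had a lower CV. The same share was 84.7% for NEFL, 87.3% for LMNB1, 57.7% for NES and 20.3% for LMNA. LMNB1 had a CV of 0.814 and LMNA 0.624, against 0.128 and 0.243 from counting. For KRT8 and KRT18 the CVs of 1.82 and 2.19 stood against 1.14 and 1.47 from counting, and for KRT19, with reads in 5 cells, the CV of 4.72 stood against 0.859.

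Of the 36 pairs that the 9 genes form, VIM with NES and NEFL with NEFM varied together the most over the 65 iNSLCs. All correlations here are of log2 levels between cells of 1 culture that differ in depth, and they are given as descriptions. VIM and NES had a Pearson r of 0.50 and a Spearman rho of 0.49, and r was 0.44 after thinning to equal reads. NEFL and NEFM had r = 0.45 and rho = 0.44, and 0.45 after thinning. Cell 80 had the highest level of both neurofilament genes, with 777 for NEFL and 641 for NEFM.

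**Figure D4:**
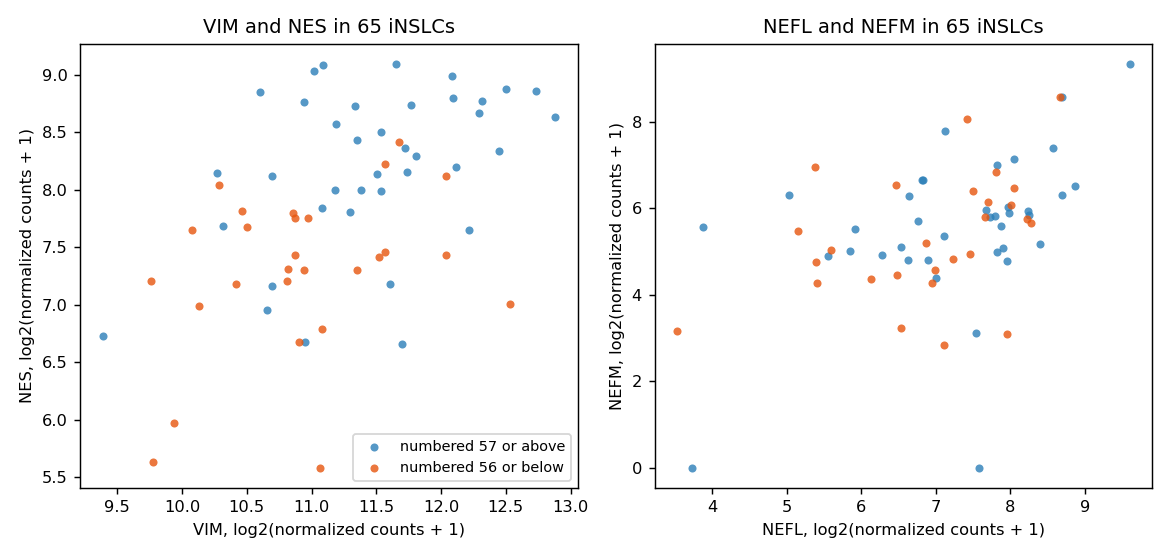
NES against VIM (left) and NEFM against NEFL (right) in 65 iNSLCs, all axes log2 of normalized counts plus 1, with 1 point per cell and colours for cells numbered 57 or above and 56 or below in the labels. Pearson r is 0.50 on the left and 0.45 on the right, and cell 80 stands at the upper right of the neurofilament panel.

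LMNB1 varied with the genes of dividing cells. The sum of 8 genes of DNA synthesis and mitosis, such as MKI67 and TOP2A, was 1.15 to 1735 normalized counts in iNSLCs (median 56.4), 803 to 1122 in ESCs, 645 in the iPSC and 157 in the fibroblast. Over the 65 iNSLCs LMNB1 had a Pearson r of 0.63 and a rho of 0.64 with this sum. Among 6117 other genes averaging 10 or more, the 1 most like LMNB1 was its paralogue LMNB2, the other B-type lamin, with r = 0.69, followed by AKR1B1 at 0.65 and THOP1 at 0.64. In the iNSLCs numbered 57 or above r was 0.73 for LMNB2, 0.51 for AKR1B1 and 0.18 for THOP1, and in those numbered 56 or below it was 0.66, 0.76 and 0.76. LMNA, in contrast, was most like HEXD, MKNK2 and EHMT1, with r = 0.63, 0.62 and 0.61. With the number of detected genes in a cell, r was 0.41 for LMNA and 0.46 for LMNB1. With log2 reads on genes, LMNA had r = 0.40 in the iNSLCs numbered 57 or above and 0.49 in those numbered 56 or below. The correlations with the cell cycle sum and with the most similar genes were not recomputed after thinning.

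The genes most like the others were found by the same measure. They pool the sets of cell numbers described below, and some were weaker in 1 set. For VIM they included LOC100413358 at r = 0.86 and IGFBP2 at 0.60, and within the iNSLCs numbered 57 or above IGFBP2 was at 0.32, against 0.81 in those numbered 56 or below. LOC100413358 is annotated in RefSeq as a pseudogene, and it averaged 20.5 normalized counts in iNSLCs, with no read in PSC cells and 29.5 in the fibroblast. Whether it shares reads with VIM was not tested. For NES they were SCRN2, AXIN1 and MED25 at 0.62, 0.60 and 0.58. SCRN2 was at 0.27 in the iNSLCs numbered 57 or above and 0.77 in those numbered 56 or below, AXIN1 at 0.39 and 0.48, and MED25 at 0.41 in both. For NEFL they were RPS14, LRIG1 and QARS1 at 0.56, 0.53 and 0.53, and for NEFM the transcription factor genes ONECUT2 at 0.61 and IRX5 at 0.51 and the retinoic acid-binding protein gene CRABP1 at 0.50. NEFL and NEFM shared none of these. IRX5 was at 0.63 in the iNSLCs numbered 57 or above and 0.27 in those numbered 56 or below, and LRIG1 at 0.40 and 0.70.

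The cell numbers of the labels went with some of the variation among iNSLCs. The 38 cells numbered 57 or above and the 27 numbered 56 or below had been separated earlier from the profiles of these cells, and they differ in depth, with medians of 208746 and 357910 reads. NES averaged 323 ± 131 normalized counts in the cells numbered 57 or above and 173 ± 71.5 in those numbered 56 or below, a 1.86-fold difference in means, with overlapping cells. LMNA averaged 28.4 and 14.8, VIM 3188 and 2184, NEFL 205 and 154, NEFM 83.2 and 64.9, and LMNB1 85.6 and 75.4, each with the cells numbered 57 or above first. The mean of KRT19 went the other way, at 1.09 and 2.83, with reads in 7.89% and 7.41% of cells. In the set numbered 56 or below only cells 50 and 47 had reads, at 63.4 and 13.1 normalized counts. The direction for KRT19 thus rests on cell 50. With equal totals the log2 difference was 0.71 for NES, 0.78 for LMNA, 0.38 for VIM, 0.19 for NEFM and 0.03 for LMNB1, and the median over all genes tested was -0.10, or 0.04 with the authors' factors. KRT8 had a read in 50.0% of the cells numbered 57 or above and 14.8% of those numbered 56 or below, and after thinning to equal reads in 31.6% and in none of 27. Both pairs that varied together did so within the sets, with r for VIM and NES of 0.44 and 0.33 and for NEFL and NEFM of 0.46 and 0.41. In the cells numbered 57 or above, LMNA and NEFM had an r of 0.455, above that of VIM and NES. The r of LMNA and NEFM was -0.08 in those numbered 56 or below. LMNB1 and the cell cycle sum had r = 0.62 and 0.69. What the number stands for is not given in the labels.

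**Figure D5:**
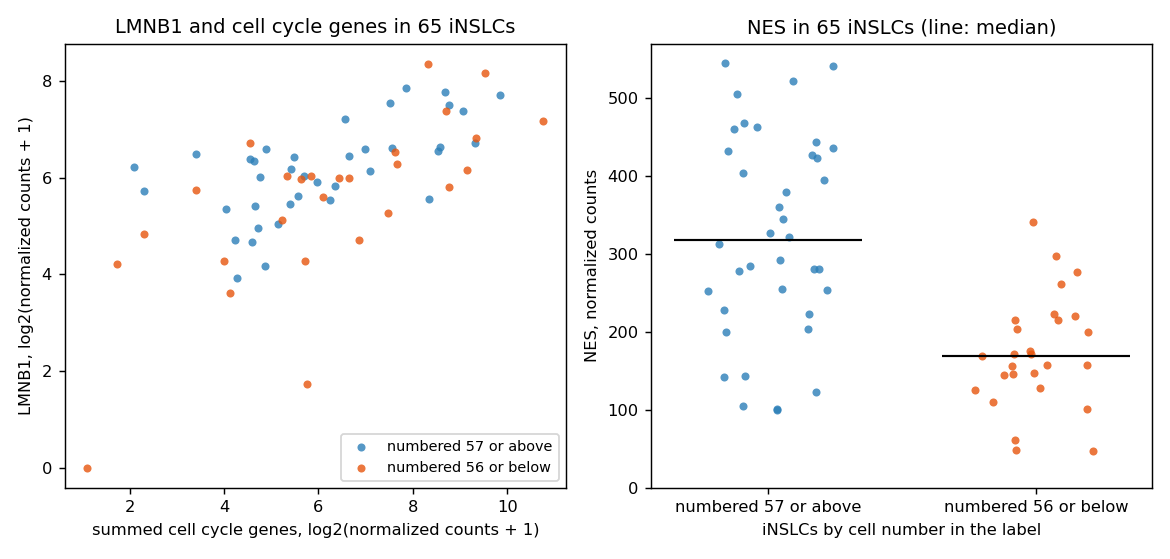
Left, LMNB1 against the sum of 8 cell cycle genes in 65 iNSLCs, both axes log2 of normalized counts plus 1, with Pearson r = 0.63. Right, NES in normalized counts in the 38 iNSLCs numbered 57 or above and the 27 numbered 56 or below, with 1 point per cell and a line at the median, showing means of 323 and 173 with overlap.

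Other filament genes set the 9 in context. Of 14 other keratins listed, 6 have a row and 2 passed the mean of 1. These were KRT10, a type I keratin of the epidermis, with a mean of 5.86 normalized counts in iNSLCs, 1.46 in ESCs, 0 in the iPSC and 4.45 in the fibroblast, and KRT20, a keratin of gut epithelium, with a mean of 1.32 in iNSLCs and no read in PSC cells, at least 2.04-fold higher when set against 3 reads over the 5 cells. KRT80 and KRT6A, under the mean of 1, had reads in the iPSC and 1 iNSLC and in the fibroblast alone, at up to 2.14 and 1.62 normalized counts.

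Among 9 other type III and IV filament genes listed, 8 have a row and 6 passed the mean of 1. Of the 6, DES alone was more than 4-fold higher in iNSLCs than in PSC cells, where 5.33% of all genes tested were. The median log2 ratio was 0.61 over the 6 and -0.16 over all genes tested. DES encodes desmin, the filament of muscle. It averaged 12.7 normalized counts in iNSLCs, with reads in 41 of them, and no read in PSC cells or in the fibroblast, so that it was at least 19.7-fold and at least 10.5-fold higher. INA encodes alpha-internexin, a filament of developing neurons. It averaged 49.6 in iNSLCs, 31.3 in ESCs and 28.9 in the iPSC, with no fibroblast read, and was thus at least 40.9-fold higher in iNSLCs than in the fibroblast but had a log2 ratio of 0.67 to PSC cells, and of 1.46 without ESC 12. SYNM, encoding synemin, averaged 7.41 in iNSLCs, 30.5 in ESCs and 17.1 in the iPSC (log2 ratio to PSC cells -1.78, and past 4-fold without ESC 11). SYNC, encoding syncoilin, averaged 3.48 in iNSLCs, 8.06 in ESCs, 4.27 in the iPSC and 12.9 in the fibroblast. GFAP, the filament gene of astrocytes, had reads in 1 iNSLC.

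The partners of the lamins differed from PSC cells by less than 4-fold with all 5 PSC cells in the mean. All 13 listed genes passed the mean of 1, and the median log2 ratio was 0.12. Without ESC 14, SYNE1 passed 4-fold. LMNB2 averaged 185 normalized counts in iNSLCs, 158 in ESCs, 132 in the iPSC and 99.9 in the fibroblast. SYNE1 and SYNE2 encode nesprins, which tie the nucleus to the cytoskeleton, and SUN1 the inner membrane protein that holds them. SYNE1 averaged 54.9 in iNSLCs, 16.2 in ESCs and 4.28 in the iPSC, a log2 ratio of 1.92, and of 3.13 without ESC 14, the PSC cell with its highest level. SYNE2 averaged 56.3, 107 and 56.6 in these groups, and SUN1 51.8, 173 and 62.0, with log2 ratios of -0.78 and -1.52.

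Of 14 listed genes whose proteins link filaments to junctions and to other fibres, 13 have a row and 10 passed the mean of 1. Their median log2 ratio to PSC cells was -1.43, against -0.16 over all genes tested. Of all genes tested, 8.59% were at least 4-fold lower in iNSLCs and 5.33% at least 4-fold higher. DSP, the desmoplakin gene, whose protein anchors keratins at desmosomes, averaged 16.1 normalized counts in iNSLCs, 268 in ESCs and 105 in the iPSC, with no read in the fibroblast and a log2 ratio to PSC cells of -3.79. The other genes past 4-fold, named after their values were seen, were PPL at -4.18 and DSG2 at -2.40, which were lower in iNSLCs, and DSC2 at 2.61, which was higher. The ratio of PPL was -2.86 without ESC 11, and that of DSG2 was -1.80 without ESC 12, which ends its 4-fold difference. They encode periplakin and the desmosomal cadherins desmoglein 2 and desmocollin 2. PLEC, encoding the cross-linker plectin that binds vimentin as well as keratins, averaged 369 in iNSLCs, 611 in ESCs, 201 in the iPSC and 2695 in the fibroblast, with log2 ratios of -0.52 to PSC cells and -2.86 to the fibroblast.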

How the data were processed

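RNA of 65 iNSLCs, 4 ESCs, 1 iPSC and 1 fibroblast was sequenced cell by cell. The authors deposited 1 signal value per gene and cell, their normalized counts. Tools listed in the submitters' processing notes are Seurat 3.0.0, featureCounts 1.5.1, STAR 2.6.0c and Trimmomatic, and for the genome build the entry is "not given in the sources used here". How reads shared by near copies of a gene were counted is not given either, so KRT8 and KRT18, which have copies in primate genomes, are uncertain to that extent. Reads were recovered from the step of each cell, with a largest deviation of 0.00116 reads. A row with no gene name, at most 0.449% of a cell, was left out.

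The 9 genes, the lists and the tests were chosen with earlier results of these data known. Each group is 1 culture, so a count test on the recovered reads was not run and no p-value was made. Ratios used a pseudocount of 1 and, for counts past 4-fold, genes with a mean of at least 1. Shares have exact Clopper-Pearson and reads exact Poisson intervals at 95%. Folds against a group with no read used 3 reads over that group. No doublet caller was run. Named genes are the 9, up to 4 per list by their highest group mean, and the 3 genes with the highest Pearson r to each of the 9 found in at least 50% of iNSLCs, of which 1 result is not reported here. PPL, DSG2, DSC2, GFAP, TDGF1, UTF1 and TOP2A were picked outside this rule, with their values known. Gene names were checked in RefSeq, which matched 8 of the 9 symbols, without KRT19. Python 3.11.15, pandas 2.3.3, numpy 2.4.6, scipy 1.17.1 and matplotlib 3.10.9 were used. The log2 ratios were tested on simulated data for genes averaging 10 or more in iNSLCs, which leaves out the keratins. Thinning was checked for its totals, and keratin shares, CVs and correlations were not simulated. The alternatives were pseudocounts of 0.1 and 10, equal totals, medians, ESCs or the iPSC alone, each PSC cell left out, removal of the 7 iNSLCs with the fewest detected genes, either set of cell numbers, 2-fold, other filters, at least 2 reads, thinning, and keratin shares from 3 genes.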

Additional observations from a re-analysis of the deposited data

Results flagged for a closer look

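In each of the 9 genes the highest and the lowest of the 4 ESCs were compared with the other 3, and 3 values stood far from the rest. KRT18 had 308 normalized counts in ESC 12, against 40.9 to 84.1 in the other ESCs. KRT19 had 262 in ESC 12, against 58.3 to 68.9 in the others. NEFL had 26.7 in ESC 14, against 0 to 0.540 in the others. How often chance alone marks such values in single cells that differ in depth was not estimated, and the keratin values come from 1 cell. The iPSC, a cell of another line, had higher levels of both keratins than ESC 12, at 619 and 364.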

How the results depend on the processing

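The 6 log2 ratios of iNSLCs to PSC cells past 4-fold, and that of NES, kept their sign under every alternative run, while those of LMNA and LMNB1 did not. Of 126 recomputed ratios, 116 moved by less than the SD over the PSC cells, a yardstick chosen after the data were seen, as were those for shares and correlations. ESCs alone and the iPSC left out are the same comparison, so these counts hold that ratio 2 times for each of the 9 genes. With the iPSC alone as comparison the ratio was 10.39 for VIM, 1.77 for NES, -0.60 for LMNB1 and 2.47 for NEFM. A pseudocount of 10 gave -4.41 for KRT8, -4.45 for KRT18, -3.88 for KRT19 and 2.32 for NEFM. Against the fibroblast it gave 4.0 for NES, 4.16 for NEFL, -0.43 for KRT8 and 0.24 for KRT19. Medians over cells gave 6.80 for NEFL. With each PSC cell left out, the ratios spanned 8.39 to 9.23 for VIM, 0.79 to 1.14 for NES, -7.03 to -6.38 for KRT8, -7.37 to -6.26 for KRT18, -6.08 to -5.35 for KRT19, -0.37 to -0.01 for LMNA, -0.15 to 0.15 for LMNB1, 4.47 to 6.79 for NEFL and 3.14 to 3.51 for NEFM. The counts of genes past 4-fold without each PSC cell stayed at 3 and 3. This step, for the 9 genes and for the lists of other keratins, other filament genes, lamin partners and linkers, was chosen after the data were seen. At 2-fold, 3 of the 9 were lower than in the fibroblast, where 1 was at 4-fold. The median keratin share of PSC cells was 64.3% over 7 genes and 99.1% for KRT8 and KRT18 over these and VIM. The cause of these moves was not tested. No paired analysis was possible because cell numbers are not shared between groups. The 4 ESCs, 1 iPSC and 1 fibroblast limit every comparison to these cells, and a gene with a few reads in a PSC cell, such as VIM or NEFL, has a ratio that rests on those reads.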
